A study of Homo sapiens and Mus musculus with 33 samples.

Results

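The data described here are the levels, and in part the newly made share, of 10 human genes that host small nucleolar RNAs: SNHG1, SNHG3, SNHG5, SNHG6, SNHG7, SNHG8, SNHG12, SNHG15, GAS5 and ZFAS1. They were chosen by symbol from the 36601 genes listed in 10 human single-cell libraries, where all 10 are listed, and by position in 9 bulk libraries of Jurkat cells, where 3 of the 10 could be read among 39096 gene rows. The study labels RNA with the uridine analogue 4sU and converts it with iodoacetamide (IAA), so that RNA made during labelling carries T-to-C changes in its reads. SLAM-seq is the bulk form of this assay and NOTE-seq the single-cell form on the 10x 3' platform.

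The bulk libraries come from the human T cell leukaemia line Jurkat T Clone E6-1. All 9 are titled as 4sU labelled, with 3 control libraries, 3 with 50 nM CPT and 3 with 1 µM ETO. The labels do not spell out these 2 agents, the time of treatment, or whether the numbered replicates are separate cultures, so the spread behind each p-value is that among these libraries and may be technical. The 4sU background of Jurkat cells without label was not analysed here in bulk. The human single-cell libraries are 1 each unless stated. Those of the human cell line eHAP are standard 10x without 4sU, NOTE-seq with 4sU, and cells with 4sU and IAA after methanol fixation. Those of Jurkat are cells without 4sU in a mix with mouse NIH3T3 cells, and 2 sets of unstimulated and stimulated cells with 4sU. A further 2 libraries are labelled K562 with 4sU, with and without IAA. Set 1 is numbered rep1 in the labels and set 2 carries no number. In both sets the unstimulated library is given as clone E6-1 and the stimulated library as clone E6-2, so stimulation and clone name cannot be told apart. Mouse genes of the same names were read in single-cell libraries of naive T cells, 1 library each. These are cells without 4sU and cells with 4sU at 0, 2, 4, 6 and 8 h of stimulation.

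Small nucleolar RNAs (snoRNAs) guide the chemical modification of ribosomal RNA and are mostly cut from introns of longer transcripts. In the SNHG genes, GAS5 and ZFAS1 the exons do not encode a long protein: the snoRNAs are the stable products of the introns, and the spliced RNA is exported and often destroyed during translation by nonsense-mediated decay, the pathway that removes RNAs with early stop codons. Many such genes begin transcription at a C within a run of pyrimidines, the 5' terminal oligopyrimidine (TOP) start shared with ribosomal protein genes, which ties their translation to growth signals. GAS5 was named for its accumulation in growth-arrested cells.

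By the RefSeq annotation (GRCh38.p14) the 10 genes are all lncRNAs and hold 36 snoRNA genes, from 1 in SNHG6, SNHG8 and SNHG15 to 9 in SNHG1 and 11 in GAS5. SNHG3 holds SNORA73A and SNORA73B, SNHG8 holds SNORA24, and ZFAS1 holds SNORD12, SNORD12B and SNORD12C. The annotated starts of the 4 members that passed a test below are shown to let the TOP run be seen. Each line gives the 30 bases from 10 before the annotated start onward, on the transcribed strand, from the RefSeq promoter table (GRCh38.p14), and capitals mark a C followed by at least 4 more bases that are each C or T.
SNHG3: gtgagtttctgattctctaactgcgcatgc
SNHG8: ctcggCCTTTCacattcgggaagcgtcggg
ZFAS1: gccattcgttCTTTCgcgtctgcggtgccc
SNHG12: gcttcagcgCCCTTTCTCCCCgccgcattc
These windows lie at chr1:28505933-28505962 (plus strand), chr4:118278752-118278781 (plus), chr20:49278632-49278661 (plus) and chr1:28581854-28581883 (minus). The run in ZFAS1 began at the annotated start base itself, that in SNHG12 1 base before it and that in SNHG8 5 bases before it, while SNHG3 had no such run within 10 bases of its start. Of the 8 members with an entry in the table, 5 (62.5%) held the run within 10 bases of the start on the transcribed strand, SNHG5 and SNHG7 being the other 2, and SNHG1 and GAS5 held none. The same search matched 33.5% of all 35116 entries and 19 of 24 entries of ribosomal protein genes that host snoRNAs. The starts are annotated and not measured in these data, and 2 of those printed lie inside the RefSeq gene span: that of ZFAS1, whose span begins at 49278178, and that of SNHG12, whose span on the minus strand begins at 28582983.

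The bulk tables list 3' UTR lines, and for noncoding genes their exons. Of the RefSeq lncRNAs on the plus strand 43.4% (of 5768) had such a line, against 0.615% (of 5694) on the minus strand, while protein-coding genes had one in 87.9% and 87.8%. SNHG3, SNHG8 and ZFAS1 lie on the plus strand and have lines. The other 7 members have none, so their response to CPT and ETO was not measured. Most reads fell on the last exon. Over all 9 libraries 45017 of 45053 SNHG3 reads were on its line at chr1:28508830-28510892, 97526 of 103488 SNHG8 reads on chr4:118279624-118285316, and 133561 of 178629 ZFAS1 reads on chr20:49289045-49290860. These last exons hold the 3' ends of the transcripts, which is where the 3' sequencing kit primes.

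Depth ranged from 19049329 to 38991246 reads in the 9 bulk libraries. CPT libraries were the shallowest (19049329 to 23892944 reads). Mitochondrial reads made up 1.05% to 1.24% of reads in control, 2.88% to 3.03% with ETO and 5.31% to 6.68% with CPT. Converted reads made up 1.96% to 2.05% of all reads in control, 1.21% to 1.23% with CPT and 2.16% to 2.17% with ETO. Both of these move with treatment beside every drug result below, and their part in the results was not tested. The SLAM-seq reads carry no molecular identifiers, so reads copied from 1 molecule cannot be told apart from reads of separate molecules. In bulk RNA, fewer molecules per cell and fewer cells that express a gene cannot be told apart.

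SNHG3, the host of SNORA73A and SNORA73B, fell in total RNA with both agents while its newly made share rose. Of its reads, 12.1%, 10.2% and 9.75% carried a conversion in the 3 control libraries, 17.7%, 22.7% and 19.8% with CPT, and 28.6%, 30.5% and 30.4% with ETO. The 3 groups did not overlap. The mean was 10.7% ± 1.22 (SD, n = 3) in control, 20.1% ± 2.53 (n = 3) with CPT and 29.8% ± 1.06 (n = 3) with ETO, 1.88-fold and 2.80-fold the control share. The exact two-sided permutation test gave p = 0.1 for each pair of groups, the smallest that 3 against 3 libraries allow. Among the 11158 genes that had 100 or more reads in every control library, this share lay at percentile 95.8 in control, 99.97 with CPT and 99.9 with ETO. The median gene of that set had 2.56% converted reads in control, 1.38% with CPT and 2.71% with ETO, so the SNHG3 share rose with CPT while that of the median gene was lower.

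SNHG8, the host of SNORA24, had a converted share of 3.62%, 3.29% and 3.48% in control, 3.18%, 3.44% and 4.35% with CPT and 7.35%, 6.44% and 6.78% with ETO. Control and CPT overlapped, and all 3 ETO libraries were higher than both. The ratio of means was 1.98 for ETO over control (exact permutation p = 0.1) and 1.06 for CPT over control (exact permutation p = 0.9, n = 3 each). Its rank among the same 11158 genes was percentile 62.4 in control, 85.7 with CPT and 86.2 with ETO.

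ZFAS1, the host of 3 SNORD12 family snoRNAs, had the lowest converted share of the 3 genes. It was 1.39%, 1.23% and 1.52% in control, 1.28%, 1.497% and 1.33% with CPT, and 3.02%, 2.85% and 3.21% with ETO. As for SNHG8, control and CPT overlapped and ETO lay above both, at 2.19-fold the control mean (exact permutation p = 0.1) against 0.989 for CPT over control (exact permutation p = 0.9). ZFAS1 stood at percentile 27.9 in control, 49.7 with CPT and 54.9 with ETO. With conversions counted per sequenced T in place of per read, its control percentile was 35.6, and that of SNHG3 and SNHG8 was 94.6 and 61.4.

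**Figure D1:**
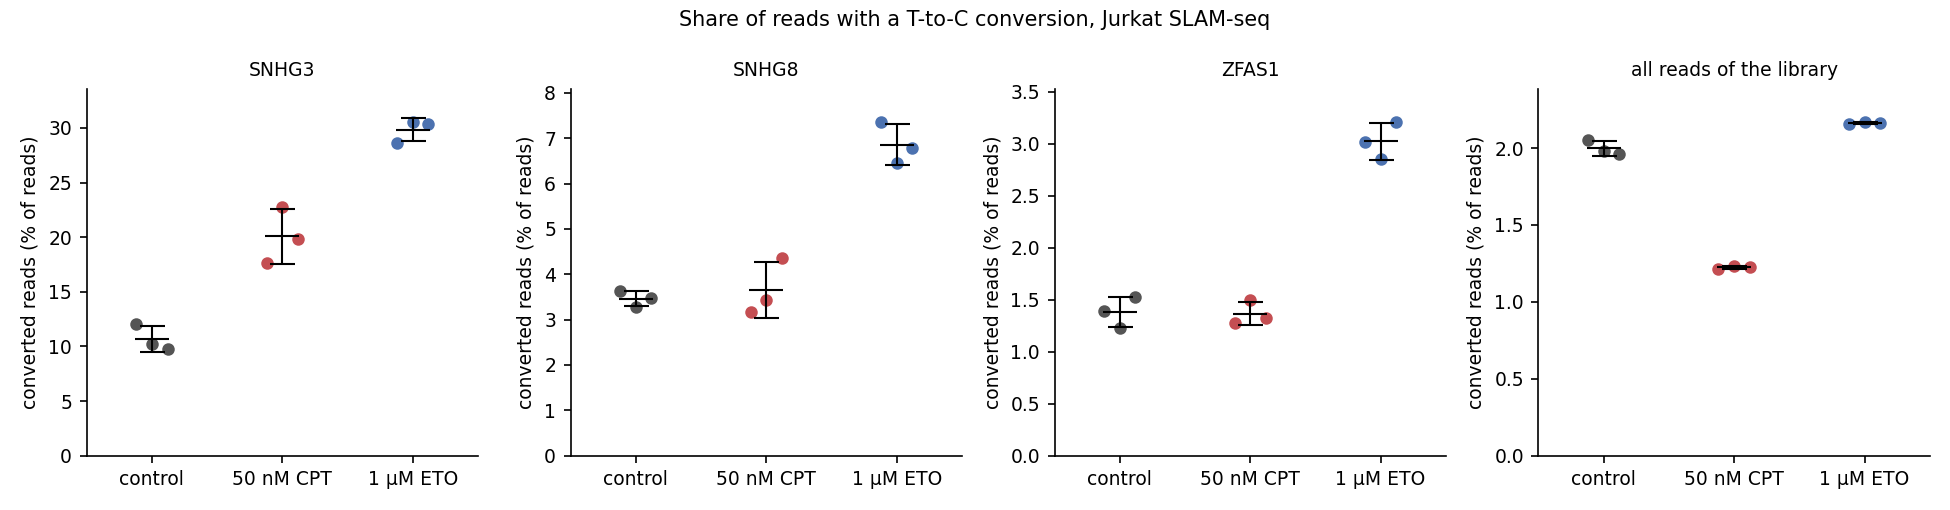
Converted reads as a percentage of all reads of SNHG3, SNHG8, ZFAS1 and of the whole library, in 3 control, 3 CPT and 3 ETO Jurkat SLAM-seq libraries; points are libraries, and bars are the mean and SD. SNHG3 rises from 10.7% in control to 20.1% with CPT and 29.8% with ETO, whereas SNHG8 and ZFAS1 overlap between control and CPT and lie higher with ETO, and the share over all reads is lower with CPT.

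The exons of 1 gene did not all show the same share. In SNHG8 the first exon line, at chr4:118278709-118279137, had 72 converted of 2210 reads in control (3.26%), 18 of 1541 with CPT (1.17%) and 84 of 1959 with ETO (4.29%), whereas the last exon had 3.47%, 3.78% and 6.91%. In ZFAS1 the line at chr20:49280485-49281181, which spans 2 exons and the intron between them with SNORD12, had 1.24%, 0.900% and 1.22%, against 1.54%, 1.59% and 3.65% in the last exon. The first exon line of ZFAS1, at chr20:49278178-49278716, had 7 converted of 3008 reads in control (0.233%), 0 of 1392 with CPT and 16 of 1787 with ETO (0.895%). The next, at chr20:49279104-49279208, had 3 of 2290 (0.131%), 11 of 1265 (0.870%) and 27 of 2066 (1.31%). The ETO share of ZFAS1 was thus above control on the last exon and on these 2 lines, and about equal to it on the line with SNORD12. These are sums over 3 libraries each and were not tested. A read that covers fewer T is less likely to count as converted, and the lines differ in T. In ZFAS1 the stretches that held nearly all reads had 24 T in 75 bases (first exon line), 19 in 105 (the next) and 56 in 216 (last exon). The part of this in the differences between lines was not tested.

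The level of total RNA was compared next, as CPM (counts scaled to a common library total) with TMM, a correction for library composition. SNHG3 total RNA stood at 233, 242 and 240 CPM in control, 95.9, 107 and 106 with CPT, and 150.5, 159.9 and 153 with ETO. The 3 groups were separate, with control highest and CPT lowest. By edgeR's quasi-likelihood test with Benjamini-Hochberg adjustment its log2 fold change was -1.21 ± 0.06 (SE) with CPT (adjusted p = 3.48e-13) and -0.63 ± 0.06 with ETO (adjusted p = 3.07e-08). CPT against ETO gave -0.59 ± 0.06 (adjusted p = 1.42e-07).

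SNHG8 total RNA fell less. It had 481, 469 and 442 CPM in control, 339, 339 and 313 with CPT, and 362, 385 and 403 with ETO, again with no overlap between the groups. The log2 fold change was -0.49 ± 0.06 with CPT (edgeR adjusted p = 1.93e-07), -0.28 ± 0.06 with ETO (adjusted p = 0.00045) and -0.21 ± 0.06 for CPT against ETO (adjusted p = 0.00514). ZFAS1 total RNA did not pass the test in any of the 3 comparisons. Its libraries had 711, 667 and 640 CPM in control, 708, 706 and 668 with CPT and 675, 711 and 762 with ETO, and all 3 groups overlapped. Its log2 fold changes were 0.05 ± 0.05 with CPT (edgeR adjusted p = 0.515), 0.09 ± 0.05 with ETO (adjusted p = 0.207) and -0.05 ± 0.05 for CPT against ETO (adjusted p = 0.568).

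These counts of 2 of 3 members in each comparison stand against a high background, since 49.9% of 16132 genes passed the same threshold (adjusted p under 0.05) with CPT, 36.3% with ETO and 31.8% for CPT against ETO. The median log2 fold change over all genes tested was 0.00 with CPT and 0.01 with ETO. SNHG3 ranked 77 by p-value with CPT and 224 with ETO among these genes.

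Converted reads alone, called new RNA here, were tested as a count of their own. With library sizes taken from the converted reads, SNHG3 new RNA had 1316, 1187 and 1138 CPM in control, 1437, 2063 and 1749.5 with CPT, and 1983, 2230 and 2142 with ETO. Both drug groups lay above control, and CPT and ETO overlapped. The log2 fold change was 0.53 ± 0.12 with CPT (edgeR adjusted p = 0.00656) and 0.80 ± 0.11 with ETO (adjusted p = 9.33e-05). SNHG8 new RNA had 815, 740.3 and 747 CPM in control, 912, 990 and 1132 with CPT and 1225, 1133 and 1253 with ETO. Each drug group lay above control, with log2 fold changes of 0.40 ± 0.12 (edgeR adjusted p = 0.04997) for CPT and 0.65 ± 0.12 (adjusted p = 0.00182) for ETO. ZFAS1 new RNA had the largest change of the 3, from 464, 394 and 473 CPM in control to 767, 897 and 737 with CPT and 938, 927 and 1123 with ETO. Its log2 fold change was 0.85 ± 0.14 with CPT (edgeR adjusted p = 0.000387) and 1.16 ± 0.14 with ETO (adjusted p = 7.54e-06).

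All 3 members thus passed with both agents, where 6.2% of 9248 genes passed with CPT and 1.91% with ETO. None of the 3 passed for CPT against ETO, where 1.88% of genes did. The log2 differences there were -0.28 ± 0.12 for SNHG3, -0.25 ± 0.12 for SNHG8 and -0.31 ± 0.14 for ZFAS1, with edgeR adjusted p from 0.24 to 0.301 and unadjusted p from 0.0257 to 0.0467, and DESeq2 also called 0. Without CPT replicate 2, SNHG3 passed (log2 -0.43, edgeR adjusted p = 0.0385). With library sizes taken from all reads all 3 passed as lower with CPT than with ETO, at -1.16 for SNHG3, -1.13 for SNHG8 and -1.20 for ZFAS1, where the median of all genes was -0.93. Under that scaling 3556 of 8943 genes were called, 3544 of them lower with CPT.

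The CPT result rested on how new RNA was scaled. When the library sizes of all reads were used in their place, the median log2 fold change over genes with CPT went from -0.06 to -0.92. The log2 fold change with CPT then became -0.32 for SNHG3 (edgeR adjusted p = 0.0374) and -0.45 for SNHG8 (adjusted p = 0.00699), both now lower than control, and 0.00 for ZFAS1 (adjusted p = 0.984). Against that median of -0.92 all 3 still stood higher. The split of calls over all genes went from 316 higher and 257 lower to 65 higher and 3409 lower. With ETO all 3 members passed and were higher under both scalings. The SNHG8 call with CPT was also lost with the replicate number as a block (edgeR adjusted p = 0.0776), with no filter on low counts (0.179), with the 2 groups alone (0.0687) and with each exon line as a row (0.0568). It was lost in 8 of the 9 fits that left out 1 library (edgeR adjusted p from 0.0573 to 0.229) and kept only without CPT replicate 1 (0.0248). The SNHG3 call was lost without control replicate 2 (edgeR adjusted p = 0.054) or 3 (adjusted p = 0.065).

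**Figure D2:**
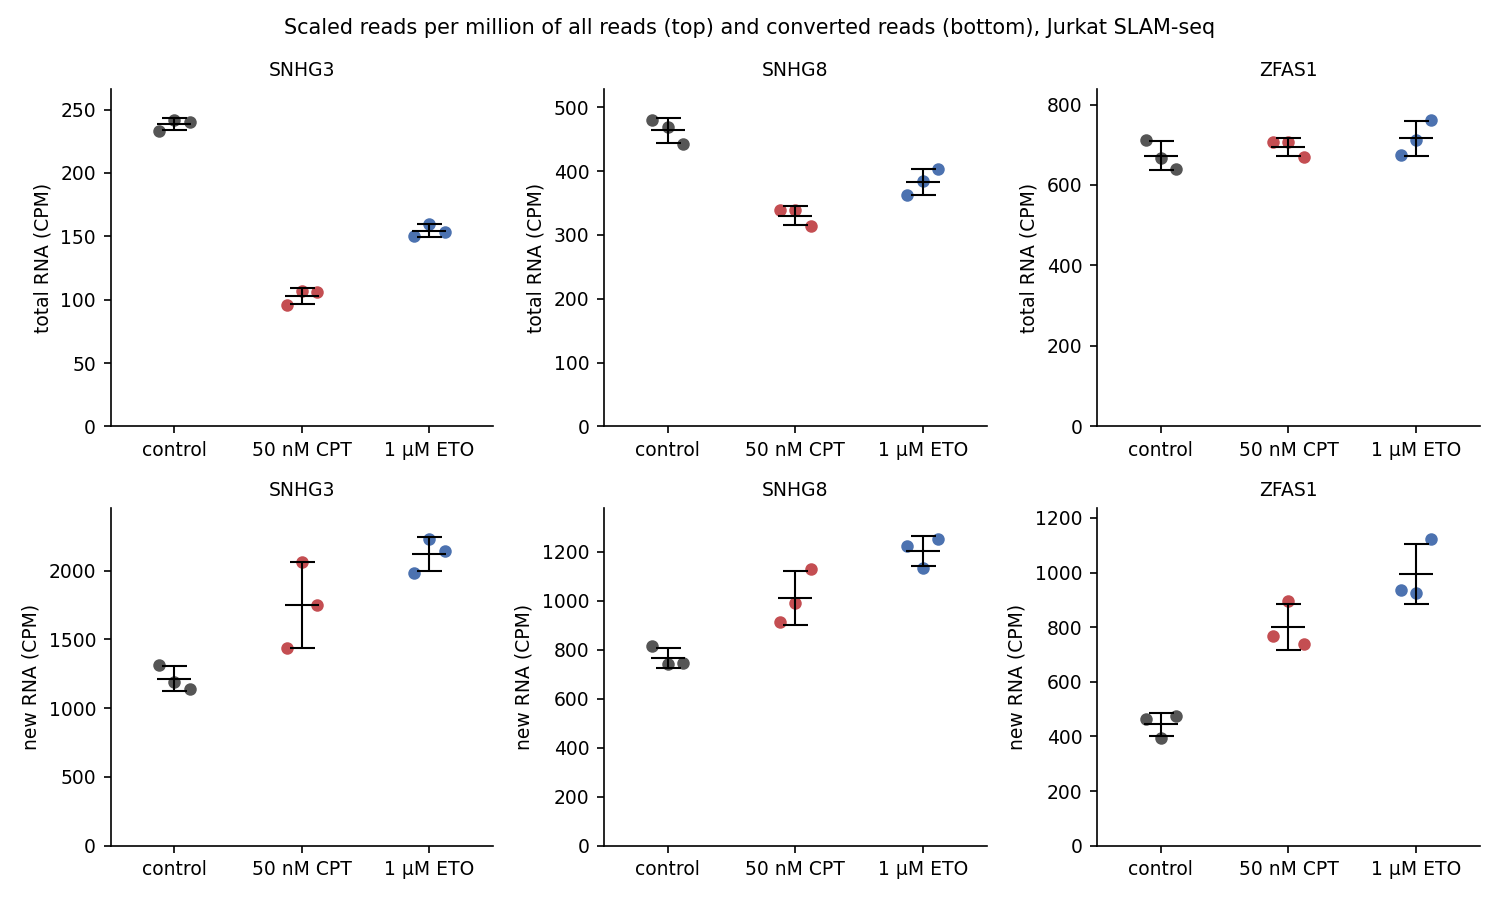
TMM-scaled CPM of SNHG3, SNHG8 and ZFAS1 in all reads (top row) and in converted reads (bottom row), by library; points are the 3 libraries of each group, and bars are the mean and SD. Total SNHG3 falls from 233 to 242 CPM in control to 95.9 to 107 with CPT, total ZFAS1 overlaps between groups, and new RNA of all 3 genes is higher with ETO than in control.

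The balance of new to old RNA was tested in 1 model over converted and other reads, with a term for each library and the difference in ratio as the effect. With CPT the log2 change of the new-to-old ratio was 1.79 ± 0.16 for SNHG3 (edgeR adjusted p = 1.87e-09), 0.79 ± 0.16 for SNHG8 (adjusted p = 0.00988) and 0.70 ± 0.16 for ZFAS1 (adjusted p = 0.0218). With ETO it was 1.74 ± 0.16 for SNHG3 (edgeR adjusted p = 1.32e-09), 0.94 ± 0.16 for SNHG8 (adjusted p = 0.000696) and 1.06 ± 0.16 for ZFAS1 (adjusted p = 8.1e-05). All 3 members passed in each, where 0.738% of 14644 genes passed with CPT and 0.512% with ETO. SNHG3 ranked 1 by p-value with CPT and 2 with ETO. These changes are relative to the scaling of each kind of read, and the median over all genes was -0.34 with CPT and -0.07 with ETO, so the positive values of SNHG8 and ZFAS1 with CPT go with a converted share that overlapped between CPT and control. Fitted on control and CPT libraries alone, SNHG8 (edgeR adjusted p = 0.0665) and ZFAS1 (adjusted p = 0.0843) no longer passed with CPT. The ZFAS1 call with CPT was also lost without control replicate 1 (edgeR adjusted p = 0.0979) or 2 (adjusted p = 0.144), and with each exon line as a row (adjusted p = 0.0612).

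**Figure D3:**
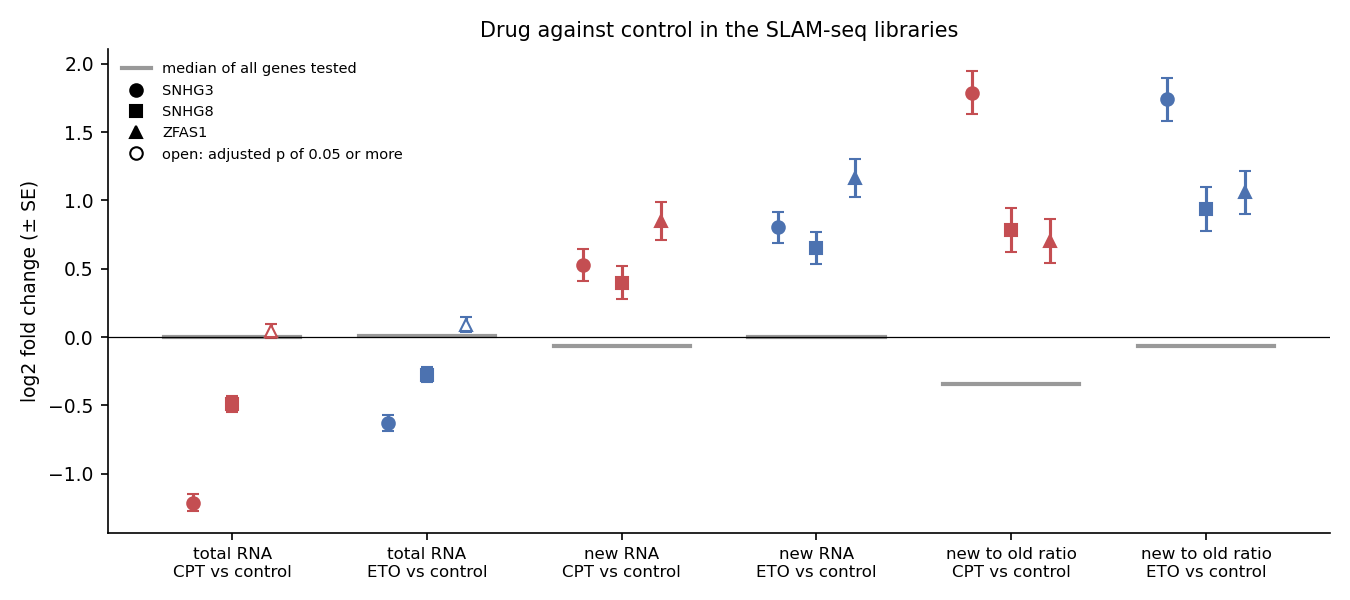
Log2 fold change with its SE of SNHG3, SNHG8 and ZFAS1, each agent against control, in total RNA, new RNA and the new-to-old ratio; grey bars are the median of all genes tested and open symbols have an adjusted p of 0.05 or more. SNHG3 is lowest in total RNA (-1.21 with CPT) and highest in the ratio (1.79 with CPT), and ZFAS1 is open in total RNA.

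SNORA24, the box H/ACA snoRNA in the intron of SNHG8, has a line of its own and moved opposite to its host in total RNA. It had 87, 67 and 90 reads in control, 231, 179 and 180 with CPT and 161, 369 and 213 with ETO, which is 2.43 ± 0.362 CPM (SD, n = 3), 9.40 ± 1.71 and 7.72 ± 1.40. Both drug groups lay above control. The log2 fold change was 1.95 ± 0.20 with CPT (edgeR adjusted p = 4.66e-08) and 1.68 ± 0.20 with ETO (adjusted p = 9.42e-07). The kit primes on poly(A), which mature snoRNAs lack, so these reads are few and need not follow the level of the mature snoRNA. Few of them were converted, from 0 to 13 in a library, and the change of its new-to-old ratio did not pass (log2 -1.32 ± 1.64 with CPT and -0.30 ± 1.44 with ETO, edgeR adjusted p = 0.779 and 1). The lines of SNORA73A, SNORA73B, SNORD12B and SNORD12C held 33, 74, 44 and 61 reads over all 9 libraries. SNORD12C, in ZFAS1, had 1, 0 and 0 reads in control, 8, 26 and 10 with CPT and 11, 4 and 1 with ETO. CPT lay above control and ETO met it at 1 read. The line met the filter on low counts only through drug libraries, where its reads lie, so its test results are left out. No fold is given, since it would rest on 1 control read. SNORA73B, in SNHG3, had 6, 7 and 7 reads in control, 20, 11 and 7 with CPT and 0, 10 and 6 with ETO. It met the filter only through the CPT libraries, so its test results are left out as well. SNORA73A and SNORD12B were below the filter on low counts.

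The lists beside the members were read in the same fits, and their counts stand beside the shares of all genes that passed in either direction: 49.9% with CPT and 36.3% with ETO in total RNA, 6.2% and 1.91% in new RNA, and 0.738% and 0.512% for the ratio. Of 15 other noncoding host genes 10 could be tested. With CPT their total RNA rose in 2 and fell in 5, with a median log2 fold change of -0.11, and with ETO it rose in 3 and fell in 4, with a median of -0.08. SNHG4 (log2 -1.45 ± 0.09 with CPT) and SNHG16 (-0.95 ± 0.07) fell, and SNHG32 rose (0.69 ± 0.05 with CPT and 0.46 ± 0.05 with ETO). Their new RNA rose in 3 with CPT and in 4 with ETO and fell in none. With library sizes from all reads these counts became 0 risen and 4 fallen with CPT, and still 4 risen with ETO. Under that scaling 3474 of 8943 genes were called with CPT, 3409 of them lower, and 179 with ETO. With library sizes from the converted reads, SNHG32, SNHG25 and SNHG29 were the 3 named with both agents (log2 0.97 ± 0.12, 0.85 ± 0.12 and 0.78 ± 0.13 with ETO). The new-to-old ratio rose in 2 of the 10 with CPT and 3 of the 10 with ETO, led by SNHG25 (1.68 ± 0.15 with ETO, edgeR adjusted p = 9.31e-10), SNHG29 (0.89 ± 0.14) and SNHG4 (2.08 ± 0.43).

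Ribosomal protein genes that host snoRNAs fell in 17 and rose in 4 of 26 in total RNA with CPT (median log2 -0.27), and fell in 18 and rose in 2 with ETO (median -0.25), against 49.9% and 36.3% of all genes called, with RPL7A (-0.85 ± 0.04 with CPT) and RPL3 (-0.71 ± 0.05) among them. Their new-to-old ratio rose in 1 with CPT and in 6 with ETO, where 0.738% and 0.512% of all genes were called, RPL3 in both (1.37 ± 0.17 and 1.15 ± 0.16). DESeq2 called 3 and 2 of them. Other protein-coding hosts fell in 14 and rose in 2 of 20 with CPT, with EEF2, the translation elongation factor, at -0.63 ± 0.05, and fell in 8 and rose in 5 with ETO. The EEF2 new-to-old ratio rose with both agents (0.81 ± 0.12 and 0.80 ± 0.12). The snoRNP proteins, which bind snoRNAs and assemble them into active particles, fell in 10 and rose in 1 of 13 with CPT, with NHP2 (-0.67 ± 0.06) and NOP10 (-0.84 ± 0.08) among them, and rose in 4 and fell in 2 with ETO, where NOP56 (0.31 ± 0.06) and FBL, fibrillarin, (0.29 ± 0.05) rose.

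Nonsense-mediated decay factors rose in 3 and fell in 3 of 9 with CPT, and rose in 1 and fell in 1 with ETO. With 49.9% and 36.3% of all genes called, these 6 and 2 of 9 do not set the list apart. SMG9 was the riser in both (1.03 ± 0.08 and 0.57 ± 0.08) and SMG8 fell in both (-0.45 ± 0.09 and -0.55 ± 0.09). Stress genes induced when translation is reduced rose in 8 and fell in 1 of 9 with CPT (median log2 1.35) and rose in 6 and fell in 1 with ETO (median 1.12), with DDIT3 at 2.81 ± 0.10 and 1.88 ± 0.10. Their new-to-old ratio passed in 0 of 9 with either agent by edgeR or DESeq2, and 4 with CPT and 3 with ETO had an unadjusted p under 0.05 by edgeR. Of the 4 tested genes that lie beside members, RCC1, next to SNHG3, fell with both agents (-0.86 ± 0.06 and -0.46 ± 0.06), SLC3A2, next to SNHG1, rose with both (0.69 ± 0.05 and 0.67 ± 0.05), and ZNFX1, next to ZFAS1, rose with CPT (0.26 ± 0.08). RCC1 did not pass in new RNA or in the new-to-old ratio. The lists overlap: RCC1 is also counted among the protein-coding hosts, and NOP56, NOP58 and DKC1 among both these hosts and the snoRNP proteins.

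In single cells the levels of all 10 members could be read, as unique molecules (UMIs) in CPM of a library, with a 95% Poisson interval that covers counting error only. Totals ranged from 442297 UMIs in 49 barcodes (labelled K562, no IAA) to 80944398 UMIs in 4223 barcodes (eHAP, methanol). Libraries shared at most 6 barcodes. The Jurkat libraries held all 12 T cell markers above 1 CPM. The libraries labelled K562 went against their label: of 12 erythroid markers expected in K562, 1 was above 1 CPM in each, HBG1, HBG2 and HBE1 were at 0 in both and the markers summed to 2.26 and 3.74 CPM, while 8 myeloid markers summed to 326 and 438 CPM. They are called the libraries labelled K562 for that reason.

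SNHG5, the host of SNORD50A and SNORD50B, differed most by cell line. It was at 77.6, 88.3 and 78.4 CPM in the eHAP libraries by standard 10x, NOTE-seq and methanol, at 669 and 680 in set 1 of Jurkat (unstimulated, stimulated), 601 and 722 in set 2, 840 in the mixed library, and 488 and 548 in the libraries labelled K562 (no IAA, IAA). Every Jurkat library was thus above every library labelled K562, and these above every eHAP library. The eHAP values spanned 1.14-fold, less than the gap between eHAP and the other libraries. Jurkat and the libraries labelled K562 lay close, at 601 and 548 CPM where they came nearest, and Jurkat alone ran from 601 to 840 CPM.

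SNHG12, which hosts SNORD99 and 3 SNORA genes, was highest in the libraries labelled K562, at 88.2 (39 UMIs, interval 62.7 to 121) and 97.9 CPM, against 17.6 to 32.8 CPM in the 8 others. SNHG1, the host of SNORD22 and 7 other named snoRNAs of the SNORD25 to SNORD31 range, had 271 and 166 CPM there. It was at 127 and 128 in Jurkat set 1, 46.8 and 77.4 in set 2, 55.4 in the mixed library, and 64.5, 131 and 28.5 in eHAP by standard 10x, NOTE-seq and methanol. GAS5, with the most snoRNAs, had the narrowest range of the 10, 2.69-fold, from 149 CPM in eHAP by standard 10x to 400.2 CPM in the library labelled K562 without IAA. SNHG3 ranged from 42.1 CPM in methanol-fixed eHAP cells to 147 in the library labelled K562 without IAA, with Jurkat between 54.5 and 107.

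SNHG7, the host of SNORA17A and SNORA17B, had the widest range, 13.04-fold. It was at 267 and 375 CPM in eHAP by standard 10x and methanol but at 83.0 by NOTE-seq, at 34.5 and 34.7 in Jurkat set 1, 77.7 and 74.5 in set 2, 87.5 in the mixed library, and 40.7 and 28.7 in the libraries labelled K562. SNHG6, SNHG8 and ZFAS1 each had their 2 highest levels in the same 2 libraries. SNHG8 was at 386 CPM in methanol-fixed eHAP and 400.1 in the mixed Jurkat library, at 140 to 178 in the other eHAP libraries and Jurkat set 2, and at 61.0 to 87.3 in set 1 and the libraries labelled K562. ZFAS1 was likewise highest in methanol-fixed eHAP (675) and the mixed library (592), and SNHG6 was at 521 and 520.5 there. Below these the orders differed: in eHAP by standard 10x SNHG6 (192) was under both libraries of Jurkat set 1 (231 and 234), whereas ZFAS1 (309.9) was above them (195 and 219). SNHG15 was highest in the mixed Jurkat library at 134 CPM and lowest in eHAP by NOTE-seq at 28.6.

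**Figure D4:**
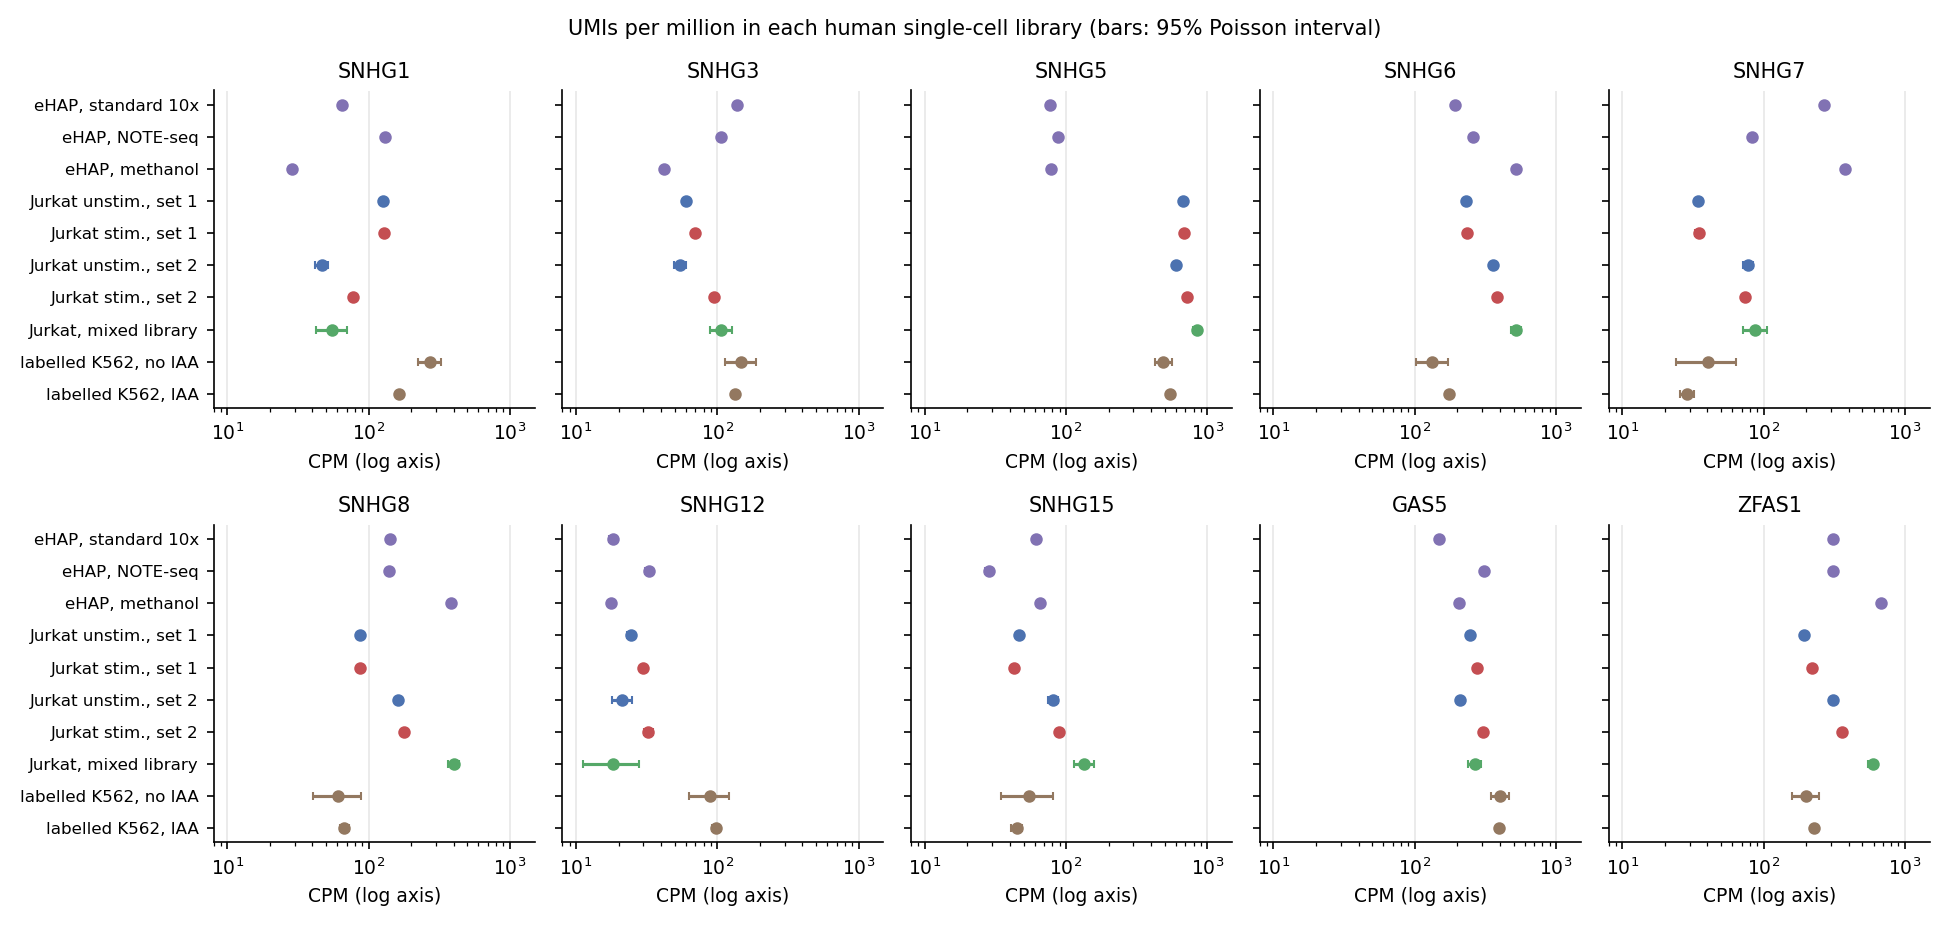
Level in CPM of each of the 10 host genes in each human single-cell library, on a log axis; points are single libraries, coloured by cell line and stimulation, and bars are 95% Poisson intervals. SNHG5 separates eHAP (77.6 to 88.3 CPM) from the rest, SNHG12 is high in the libraries labelled K562, and SNHG7 and SNHG8 differ between libraries of 1 cell line.

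Over the 10 libraries the members did not move as 1 group. Log2 levels of SNHG8 had a Pearson r of 0.97 with ZFAS1 and 0.92 with SNHG6, and of -0.88 with SNHG1, while SNHG12 had 0.86 with GAS5 and 0.82 with SNHG1. These are descriptions over 10 libraries that share cell lines, protocols and sets, and the share of UMIs from ribosomal protein genes, 6.79% to 36.1%, was itself highest in methanol-fixed eHAP (36.1%) and the mixed library (28.2%), the libraries with the most SNHG8. Its part in the levels was not tested. The genes whose profile was most like the mean of the 10 members, of 4674 with a mean of at least 50 CPM, were PSMB3 (r = 0.893), SH3BGRL3 (0.876), ABRACL (0.849) and ETHE1 (0.827), over the same 10 libraries.

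In eHAP the protocol can be compared within 1 cell line, with 1 library each and so with no test. By NOTE-seq over standard 10x, GAS5 was 2.08-fold (interval 2.02 to 2.14) and SNHG1 2.03-fold higher, SNHG7 was at 0.311 (0.298 to 0.324) and SNHG15 at 0.470, and SNHG8 and ZFAS1 were at 0.977 and 0.993. So 4 of 10 members differed by 2-fold or more, where 23.8% of 14714 genes with 100 UMIs or more over both libraries did. In the methanol library over standard 10x, SNHG6 (2.72-fold), SNHG8 (2.70-fold) and ZFAS1 (2.18-fold) were higher and SNHG3 (0.307) and SNHG1 (0.442) lower, 5 of 10 members against 66.4% of 14145 genes. Most genes were lower there (median log2 -1.47), and SNHG6, SNHG8 and ZFAS1 lay at percentiles 98.3, 98.2 and 97.3 of all genes. The protocols differ in 4sU, conversion and handling at once.

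Stimulation of Jurkat cells was tested on UMIs summed per library, with the set as a term. So few libraries leave almost no spread per gene, and the p-values rest mostly on a spread estimated across genes. SNHG3 rose from 60.3 to 69.2 CPM in set 1 and from 54.5 to 94.6 CPM in set 2, a log2 fold change of 0.49 ± 0.12 (edgeR adjusted p = 0.00146). SNHG12 rose from 24.6 to 29.8 and from 21.2 to 32.6 CPM (log2 0.44 ± 0.14, edgeR adjusted p = 0.0175). In each set the stimulated library was the higher for both genes, and the change was larger in set 2: 1.73-fold against 1.15-fold for SNHG3 and 1.54-fold against 1.21-fold for SNHG12. That difference between sets was not tested.

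The other 8 members did not pass. GAS5 went from 244 to 273 CPM in set 1 and from 209 to 305 in set 2 (log2 0.37 ± 0.14, edgeR adjusted p = 0.0572), and SNHG1 from 127 to 128 and from 46.8 to 77.4 (log2 0.35 ± 0.13, adjusted p = 0.0549). The log2 fold changes of SNHG5, SNHG6, SNHG7, SNHG8, SNHG15 and ZFAS1 lay between -0.0031 and 0.22, with edgeR adjusted p from 0.391 to 0.995. So 2 of 10 members passed, where 10.8% of 19099 genes did, and the median over the members was 0.19 against -0.02 over all genes. The activation genes CD69 and EGR1 were higher in both stimulated libraries (CD69 40.5 to 1189 CPM in set 1 and 6.51 to 747 in set 2).

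The sets differed more than the states. Between the 2 unstimulated libraries SNHG7 was 2.25-fold higher in set 2 and SNHG1 at 0.368, so 2 of 10 members differed by 2-fold or more, where 42.6% of 13312 genes did. Ribosomal protein genes made up 7.13% of UMIs in unstimulated set 1 and 19.0% in unstimulated set 2. The unstimulated library of set 2 had 392 barcodes, and the other 3 had 1842, 1933 and 2296. Without the set term 0 members and 0 genes in all passed by edgeR (0 members and 218 genes had an unadjusted p under 0.05), and DESeq2 with the set term called 0 members and 618 genes. The SNHG3 and SNHG12 calls were also lost in each of the 4 fits that left out 1 library, which had no set term. There the log2 fold change of SNHG3 was lowest without the stimulated library of set 2 (0.11) and highest without that of set 1 (0.94), and that of SNHG12 was 0.23 and 0.73.

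**Figure D5:**
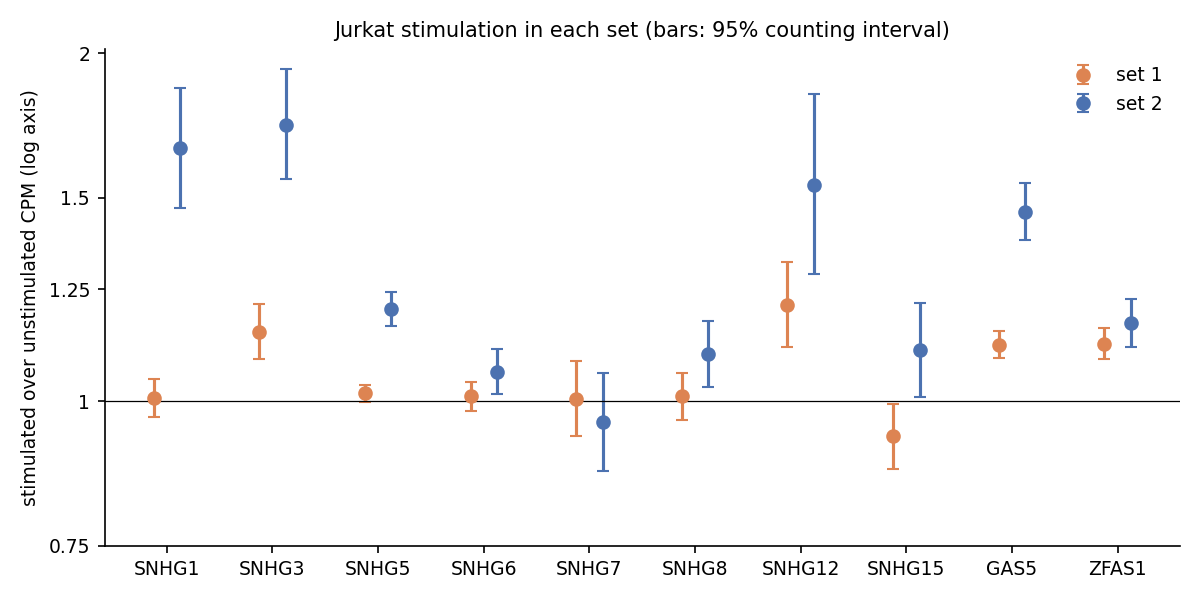
Stimulated over unstimulated CPM of each host gene in the 2 Jurkat sets, on a log axis; points are ratios of 1 library to another and bars are 95% counting intervals. SNHG3 and SNHG12 lie above 1 in both sets, at 1.15 and 1.21 in set 1 and 1.73 and 1.54 in set 2, and SNHG7 lies at 1 within its interval in both.

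None of the 15 other noncoding host genes passed with stimulation, nor did any of 22 protein-coding hosts, 26 ribosomal protein hosts, 16 snoRNP proteins and 10 decay factors, by edgeR's quasi-likelihood test or DESeq2. By edgeR 2, 5, 0, 2 and 2 of them had an unadjusted p under 0.05. Their medians lay between 0.00 and 0.15 on the log2 scale. Of the stress genes ATF3 (0.98 ± 0.17) and GADD45B (0.77 ± 0.24) rose, and of the genes beside members ZNFX1 did (0.36 ± 0.13, edgeR adjusted p = 0.0419). DESeq2 called 1 of the 9 stress genes and 0 of the 5 genes beside members, so ZNFX1 did not pass with it.

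Mouse genes of the same names were read in naive T cells from lymph nodes, 1 library for each time of stimulation, with no test. Between 0 h and 8 h Snhg15 went from 19.1 CPM (14 UMIs) to 156 CPM (111 UMIs), a ratio of 8.16 (interval 4.66 to 15.4). Snhg3 went from 30.1 to 146 CPM (ratio 4.86, interval 3.05 to 8.10) and Snhg6 from 41.0 to 128 CPM (3.12, 2.05 to 4.89). Gas5 was at 395 CPM at 0 h, 274 at 2 h, 225 at 4 h, 222 at 6 h and 293 at 8 h, and Zfas1 at 182, 80.4, 69.7, 83.3 and 104 CPM. Zfas1 was thus 2-fold or more lower at 2, 4 and 6 h (ratios 0.442, 0.383 and 0.458). Snhg8 went from 279 CPM at 0 h to 151 at 8 h (ratio 0.540, interval 0.423 to 0.685). Of the 7 with 100 UMIs or more over both libraries, 4 were 2-fold or more higher at 8 h and 0 lower. Of 1547 genes 62.7% differed by as much in either direction, 38.8% higher and 23.9% lower. Snhg15, Snhg3, Snhg6 and Snhg1 were the 4, at percentiles 95.3, 88.4, 74.5 and 64.3 of all genes. They had 14, 22, 30 and 38 UMIs at 0 h and 111, 104, 91 and 83 at 8 h. They thus met the limit only through the library where they were high, and Snhg5 and Snhg12, with few UMIs in both, were left out. The count and the percentiles favour genes high at 8 h for that reason and say nothing of the members as a group. The library without 4sU, also given as naive T cells, had 228 CPM of Snhg12 and 226 of Snhg1, against 45.1 and 52.0 in the 0 h library with 4sU. Snhg3 was at 61.8 and 30.1 CPM and Snhg15 at 42.7 and 19.1 CPM in the same 2 libraries. Of 6 genes with 100 UMIs or more over both, 3 were 2-fold or more lower at 0 h and 0 higher. These 3, Snhg1, Snhg12 and Snhg3, had 307, 310 and 84 UMIs without 4sU and 38, 33 and 22 at 0 h. They too met the limit through the library where they were high. Of all 2510 genes 3.51% differed by as much in either direction. The rises of Snhg15, Snhg3 and Snhg1 above are thus taken from a 0 h library lower than the one without 4sU. At 8 h Snhg1 (117 CPM) was still below its level without 4sU, while Snhg15 (156) and Snhg3 (146) were above theirs.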

How the data were processed

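The deposited single-cell matrices give the UMI count of each gene in each barcode, made with cellranger 7.1.0 or 7.2.0, per the file headers. The SLAM-seq tables hold counts of reads, of reads with a conversion, of conversions, of T coverage and of multimapped reads per 3' UTR line, made with slamdunk 0.4.3, per the file headers. The builds GRCh38 and mm10 are named in the submitters' processing notes, while the number of conversions that makes a read converted is not given in the sources used here. Further deposited columns hold barcodes and gene names.

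Barcodes were used as deposited. In the mixed library those with at least 90% human UMIs were taken as Jurkat (239 of 586). No doublet caller was run. UMIs were summed per library. Overlapping SLAM-seq lines were grouped, each group was read from its line of most reads, and groups were named by RefSeq spans ending within 1000 bases. Mitochondrial rows stayed out of the SLAM-seq tests.

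edgeR 4.0.16 (filterByExpr, TMM, quasi-likelihood F test) and DESeq2 1.42.0 were run in R 4.3.3 on all genes, with Benjamini-Hochberg adjustment over all genes tested and a threshold of 0.05. The edgeR fits were tested on simulated data, the DESeq2 fits were not. All 9 SLAM-seq libraries entered 1 fit. Same-numbered SLAM-seq libraries were not paired: correlations of their deviations ran from -0.0434 to 0.0137. No 2 replicates agreed within sampling noise (chi-square over degrees of freedom at least 5.63). Named genes were all members, up to 3 genes a list and comparison with the smallest p among those past the threshold, and the 4 genes with the most similar profile. The members and lists were chosen with earlier results of these data known. Alternatives were other scalings, filters, tools, blocks and left-out libraries. Mouse SLAM-seq was not used here.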

Additional observations from a re-analysis of the deposited data

How the results depend on the processing

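In total RNA the number of members called (2 of 3 in each comparison) was the same under DESeq2, no filter, 2 groups only, the replicate block, each left-out library, single lines as rows and no multimapped reads. With new RNA and CPT it ranged from 1 to 3 over left-out libraries. With new RNA, CPT against ETO, it was 0, ranged from 0 to 1 over left-out libraries, and became 3 with library sizes from all reads, where 3556 of 8943 genes were called. The CPT values that changed direction under that scaling were -0.32 (SNHG3) and -0.45 (SNHG8), where the median of all genes was -0.92. For the new-to-old ratio with CPT it was 1 with the 2 groups only and 2 to 3 over left-out libraries. With ETO, 3 of 3 members stayed called in new RNA and in the ratio under each alternative run. The replicate block ended 1 call, SNHG8 new RNA with CPT (log2 0.40, edgeR adjusted p = 0.0776). The labels do not say that a number marks a shared culture or day. Counts over all genes with the block were 187 against 108 for the ratio with CPT and 117 against 75 with ETO. With the 2 groups only they were 27 and 374, and with DESeq2 302 and 133.

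For Jurkat stimulation, no replicate block and DESeq2 each left 0 members called, and 4 fits that each left out 1 library, with no set term, also left 0. Where only 1 library stood for a state it was assumed to vary like the other. Log2 values in those 4 fits ranged from 0.11 to 0.94 for SNHG3, 0.23 to 0.73 for SNHG12, 0.12 to 0.65 for GAS5, -0.73 to 0.90 for SNHG8, -0.059 to 0.40 for SNHG5, -0.78 to 0.81 for SNHG15, -0.54 to 0.68 for SNHG6, -0.93 to 0.95 for SNHG7, -0.13 to 0.95 for SNHG1 and -0.41 to 0.84 for ZFAS1. SNHG7 was 0.010 with no filter on low counts. The GAS5 call appeared with barcodes of at least 5000 UMIs and under 10% mitochondrial (edgeR adjusted p = 0.0447).

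Of the single-cell levels, 4 of 100 left their counting interval with those barcodes and 89 of 100 did without mitochondrial and ribosomal protein genes, which raises all values of a library by 1 factor. At a human share of 99% the mixed library kept 1 barcode, so that setting says nothing. Counts of 49 barcodes limit the library labelled K562 without IAA, and 14 to 30 UMIs limit the lowest mouse values at 0 h.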
